A study of Mus musculus with 18 samples.

Results

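Imprinted genes are expressed mainly or only from the copy inherited from 1 parent. The 10 genes followed here are Impact, Peg3, Plagl1, Snrpn and Mest, which are expressed from the paternal copy, and Igf2r, Grb10, H19, Meg3 and Cdkn1c, which are expressed from the maternal copy in most tissues. They were taken by symbol from a table of 21761 genes, and all 10 had a row. The 10 genes were measured in RNA-seq libraries of B lineage cells from Dnmt3-sufficient and Dnmt3-deficient mice.

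The 18 libraries, of 5000 sorted cells apiece, came from 3 cell types in 2 genotypes, with 3 libraries per group. Naive B cells (nB, B220+ Fas- GL7-) came from lymph nodes of unimmunized mice. Germinal center B cells (GCB, B220+ Fas+ GL7+ and binding phycoerythrin) came from lymph nodes, and plasma cells (BMPC, CD138+) from bone marrow, both at 30 days after immunization with phycoerythrin. All mice were young adults on a mixed B6;129S4 background and carried loxP-flanked (floxed) Dnmt3a and Dnmt3b alleles on both chromosomes, the controls included. The Dnmt3-sufficient mice were Dnmt3afl/fl Dnmt3bfl/fl without Cre, and the Dnmt3-deficient mice were Dnmt3afl/fl Dnmt3bfl/fl with 1 Cre allele. Cre acts in B lineage cells from an early stage of their development, and the controls did not carry it. Each GCB library pooled cells of a pair of mice. Levels are given as FPKM, read pairs per kilobase of exon and per 1000000 counted on genes.

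The parental copies of an imprinted gene are told apart by DNA methylation that is laid down in the germ line at imprinting control regions. In the germ line the marks are set by Dnmt3a with its cofactor Dnmt3l. After fertilization they are copied at each cell division by Dnmt1 with Uhrf1 and protected by Zfp57, Zfp445 and Trim28. Many imprinted genes act in fetal growth and placental function and are turned down after birth, and many are imprinted in only some tissues. The libraries measured the summed RNA of both copies, so they hold no information on which copy was used.

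The bases before a start site of 4 of the genes are shown because these genes differ in how widely they were read. Igf2r, like Impact, was read in every library. Mest was read in 10 of 18 libraries, and Grb10 and Meg3 were read in 1 each. Windows of 250 bases came from RefSeq (GRCm38.p6), and each matched mm9 at 1 place, given here with the gene's strand. Of the 10 genes, 7 had a window, 14 windows in all. H19, Cdkn1c and Impact had none. Capitals mark TGCCGC or its reverse complement GCGGCA, the letters that Zfp57 recognizes when methylated. The windows are those of Igf2r at chr17:12962573-12962822 (minus strand), Grb10 at chr11:11937424-11937673 (minus strand), Mest at chr6:30687800-30688049 (plus strand) and Meg3 at chr12:110778956-110779205 (plus strand). None of the 4 windows touches an annotated exon.
Igf2r: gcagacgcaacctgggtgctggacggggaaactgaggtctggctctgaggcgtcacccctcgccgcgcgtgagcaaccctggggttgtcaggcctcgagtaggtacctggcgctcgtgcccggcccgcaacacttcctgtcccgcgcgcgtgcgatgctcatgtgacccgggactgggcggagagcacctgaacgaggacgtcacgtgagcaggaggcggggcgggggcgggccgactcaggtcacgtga
Grb10: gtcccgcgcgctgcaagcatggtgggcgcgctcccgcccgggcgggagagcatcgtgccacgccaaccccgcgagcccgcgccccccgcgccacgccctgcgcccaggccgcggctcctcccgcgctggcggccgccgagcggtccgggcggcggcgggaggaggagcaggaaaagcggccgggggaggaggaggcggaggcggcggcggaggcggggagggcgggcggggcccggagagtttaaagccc
Mest: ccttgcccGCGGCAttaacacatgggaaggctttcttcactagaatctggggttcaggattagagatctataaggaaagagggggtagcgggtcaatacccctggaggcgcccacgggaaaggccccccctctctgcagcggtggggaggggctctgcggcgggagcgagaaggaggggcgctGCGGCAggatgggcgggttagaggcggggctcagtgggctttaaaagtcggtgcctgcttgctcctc
Meg3: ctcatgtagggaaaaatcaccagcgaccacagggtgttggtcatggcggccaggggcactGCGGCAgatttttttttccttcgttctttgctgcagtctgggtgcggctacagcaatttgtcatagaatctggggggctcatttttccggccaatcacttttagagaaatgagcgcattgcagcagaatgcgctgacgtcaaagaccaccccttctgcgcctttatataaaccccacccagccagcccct

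The hexamer stood at 2 places in the Mest window and at 1 in the Meg3 window, and not in the windows shown for Igf2r and Grb10. It was found in 4 of the 14 windows of the imprinted genes, belonging to Mest, Plagl1 and Meg3, and 2 of those 4 are Mest windows that overlap almost fully. Of all 32851 windows in the table, 8.68% held it on either strand. The CG dinucleotide, the site of methylation, stood 40 times in the Grb10 window, 27 times in that of Igf2r, 14 times in that of Mest and 10 times in that of Meg3, against a median of 6 over all windows (quartiles 2 and 16). Grb10 had a second window, with 8 CG, and Meg3 a second one with 0. Mest also had a window at chr6:30683256-30683505, with 7 CG and without the hexamer. No methylation values were analysed here.

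Reads on genes came to 6692516 to 8987922 per nB library, 7644544 to 8903872 per GCB library and 1355231 to 3803197 per BMPC library, and a gene of low level is therefore more easily missed in BMPC. Genes with a read numbered 10985 to 12115 in nB and GCB and 7096 to 8869 in BMPC. Dnmt3a ranged from 2.24 to 5.18 FPKM in nB and from 0 to 3.08 in the other cell types, and Dnmt3b from 0.521 to 8.15 in nB and from 0 to 9.29 elsewhere. The genotypes overlapped for both genes except for Dnmt3b in GCB, which was higher in the deficient libraries (0.744 to 1.10 against 0 to 0.676). A gene total does not separate the deleted exons from the rest, so it does not check the genotype. The summed level of each labelled cell type's marker list was highest in that cell type. Single markers departed from this, as Irf4 averaged 14.2 FPKM in deficient BMPC and 24.3 in deficient nB, and Ms4a1 averaged 686 FPKM in deficient GCB and 538 in deficient nB. The summed level of 6 plasma cell markers was 18743 to 50988 FPKM in BMPC against 312 to 1518 in the others. The BMPC libraries also carried genes of other marrow cells. All 7 neutrophil genes were read in sufficient BMPC and 4 of 7 in deficient BMPC (Elane, Ltf and Camp were at 0), with sums of 63.4 to 526 and 9.37 to 582 FPKM, and none was read in nB or GCB. The 4 erythroid genes in the table summed to 149 to 2194 FPKM in BMPC, 22.5 to 218 in deficient nB and 0.352 to 11.6 in the other groups. A list of 6 macrophage genes summed to 60.5 to 239 FPKM in BMPC and 5.26 to 78.4 in nB and GCB, with Cd14 at 0 in all 18 libraries. A list of 6 early B cell genes summed to 379 to 800 FPKM in BMPC and 182 to 378 in nB and GCB, with Rag1 and Rag2 seen in BMPC alone. Of 7 stromal genes, summing to 2.35 to 22.5 FPKM in BMPC and at most 0.190 elsewhere, 6 were at 0 in deficient BMPC. A list of 5 progenitor genes summed to 27.8 to 83.5 FPKM in BMPC, 16.1 to 29.6 in GCB and 0.274 to 3.38 in nB. By the labels, 4 of 6 libraries were female in nB and in GCB, and 2 of 6 in BMPC. In such bulk libraries fewer cells of a type and less RNA per cell cannot be told apart.

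Of the 10 imprinted genes, Impact and Igf2r were read in all 18 libraries, Mest in 10 and Cdkn1c in 5. The other 6 had a read in at most 2 libraries. Plagl1 and H19 had none in any library, as did 31.4% of all genes of the table. The map of recovered reads shows these groups of genes as filled, broken and empty lines.

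**Figure D1:**
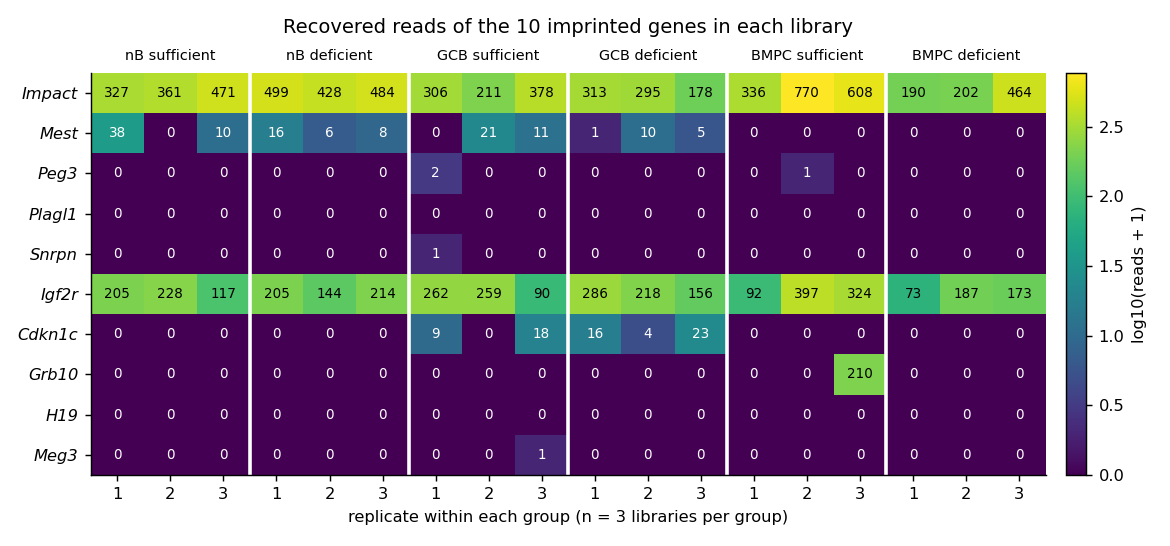
Reads recovered for each of the 10 imprinted genes (lines) in each of the 18 libraries (columns, 3 per group), colored by log10(reads + 1) and printed as numbers. Impact and Igf2r have 73 or more reads in every library, Cdkn1c is read only in GCB, and Mest is read in nB and GCB.

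Impact had the highest level of the 10 genes in each cell type. It encodes a protein that holds back Gcn2, the kinase that lowers translation when amino acids run short. The gene lies on chromosome 18 at positions 13130761 to 13151457 of mm9, on the plus strand. In nB, Impact stood at 14.2, 13.8 and 15.3 FPKM in sufficient libraries and at 18.2, 17.8 and 18.4 in deficient libraries. In GCB it stood at 10.01, 8.04 and 13.0 FPKM in sufficient and 10.9, 10.6 and 5.88 in deficient libraries. In BMPC it stood at 44.6, 59.0 and 48.8 FPKM in sufficient and 33.9, 43.4 and 59.7 in deficient libraries. All 6 BMPC libraries lay above all 12 others, and all 6 GCB libraries lay below all 6 nB libraries, while the genotypes overlapped in GCB and BMPC. Each of these values rested on 178 to 770 reads. Over all genes with a read in the cell type, the mean level of Impact stood at percentile 62.9 in GCB, 69.4 in nB and 86.8 in BMPC.

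Impact was tested with limma on log2(FPKM + 1) over all 18 libraries, with Benjamini-Hochberg adjustment over 11522 genes. A call required an adjusted p of at most 0.05 together with a change of 1 or more on that scale. In BMPC against nB, Impact rose by 1.74 (SE 0.35, limma adjusted p = 0.00103) in sufficient and by 1.25 (limma adjusted p = 0.0106) in deficient mice. In BMPC against GCB, it rose by 2.20 (limma adjusted p = 0.000198) in sufficient and by 2.21 (limma adjusted p = 0.000173) in deficient mice. The means were 3.52 and 2.52 times those of nB and 4.90 and 4.99 times those of GCB, in sufficient and deficient mice. The SE was the same in each of these comparisons. Over all genes tested the median change went the other way, at -0.70 and -0.84 against nB and -0.56 and -0.73 against GCB. Scaling by median of ratios moved these medians to -0.64, -0.67, -0.46 and -0.54, and the 4 calls of Impact held. They also held in fits to the 6 libraries compared (limma adjusted p = 0.00423 to 0.0265). With a quality weight for each library the call in deficient BMPC against nB was lost (limma adjusted p = 0.0806). The neutrophil, erythroid and early B cell genes above were also highest in BMPC, and their part in the result was not tested.

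Between GCB and nB the lower level of Impact in GCB was not called. The change was -0.46 (SE 0.35, limma adjusted p = 0.455) in sufficient and -0.96 (SE 0.35, limma adjusted p = 0.0868) in deficient mice, although the libraries did not overlap. Of 8 alternative fits none called it, with limma adjusted p from 0.173 to 0.556 in sufficient and from 0.00459 to 0.121 in deficient mice. In deficient mice the change in these fits was -1.06 to -0.96, near the minimum of 1. The order of levels was thus BMPC, nB, GCB, with only BMPC set apart by calls. The same direction was seen in both genotypes.

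Between genotypes, Impact did not overlap in nB, where each deficient library lay above each sufficient one, with means of 18.1 ± 0.340 and 14.4 ± 0.776 FPKM (SD, n = 3). The change of 0.31 (SE 0.35) was not called (limma adjusted p = 1, and 0.912 in the fit to the 6 nB libraries). Of all genes tested, 8.84% had genotypes that did not overlap in nB. The erythroid genes were also higher in deficient nB, and their part in the difference was not tested. In GCB the change was -0.18 (limma adjusted p = 1) and in BMPC -0.18 (limma adjusted p = 0.887), with the same SE.

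**Figure D2:**
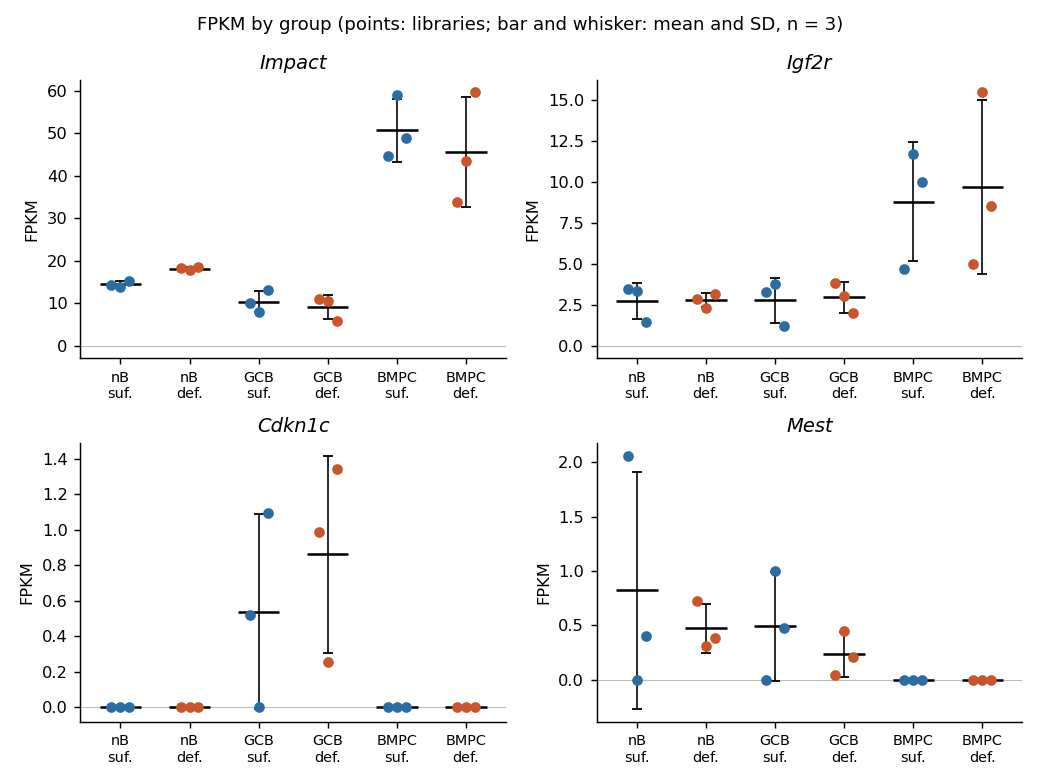
FPKM of Impact, Igf2r, Cdkn1c and Mest in each library (points, blue sufficient and orange deficient) with the group mean and SD (bar and whisker, n = 3). Impact and Igf2r are highest in BMPC, Cdkn1c is above 0 only in GCB, and Mest is at 0 in all BMPC libraries.

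Igf2r encodes the receptor that clears the growth factor Igf2 from the cell surface and carries enzymes tagged with mannose 6-phosphate to lysosomes. It lies on chromosome 17 at positions 12875272 to 12962530 of mm9, on the minus strand. In nB it stood at 3.43, 3.34 and 1.46 FPKM in sufficient and 2.87, 2.30 and 3.14 in deficient libraries. In GCB it stood at 3.30, 3.79 and 1.19 FPKM in sufficient and 3.84, 3.02 and 1.98 in deficient libraries. The ranges of these 4 groups overlapped, in both cell types and both genotypes. In BMPC it stood at 4.69, 11.7 and 9.998 FPKM in sufficient and 5.01, 15.5 and 8.55 in deficient libraries, on 73 to 397 reads. All 6 BMPC libraries lay above all 12 others, but they spread from 4.69 to 15.5 FPKM among themselves.

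Igf2r rose in BMPC in all 4 comparisons, each close to the threshold. Against nB it rose by 1.36 (SE 0.51, limma adjusted p = 0.0424) in sufficient and by 1.39 (limma adjusted p = 0.0383) in deficient mice. Against GCB it rose by 1.38 (limma adjusted p = 0.0493) and 1.34 (limma adjusted p = 0.0498), all with the same SE. The group means were 3.19 to 3.49 times higher. The neutrophil, erythroid, stromal and early B cell genes above were also highest in BMPC, and their part in the rise of Igf2r was not tested. In the fits to the 6 libraries compared none of the 4 was called (limma adjusted p = 0.112 to 0.145). Leaving out any single library of a comparison except replicate 1 of BMPC also ended the call, with a change between 0.97 and 1.59 and limma adjusted p between 0.0593 and 0.202. Between GCB and nB Igf2r changed by -0.02 and 0.04, and between genotypes by 0.05 in nB, 0.12 in GCB and 0.08 in BMPC (SE 0.51), none of which was called.

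Impact and Igf2r were therefore the 2 imprinted genes called higher in BMPC, of 3 that passed the filter on low values, FPKM above 1 in at least 2 libraries. Of all genes tested, 9.74% were called higher in BMPC than in nB in sufficient and 6.85% in deficient mice. Against GCB the shares were 6.67% and 6.14%. The plot of changes sets each gene beside the median of all genes.

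**Figure D3:**
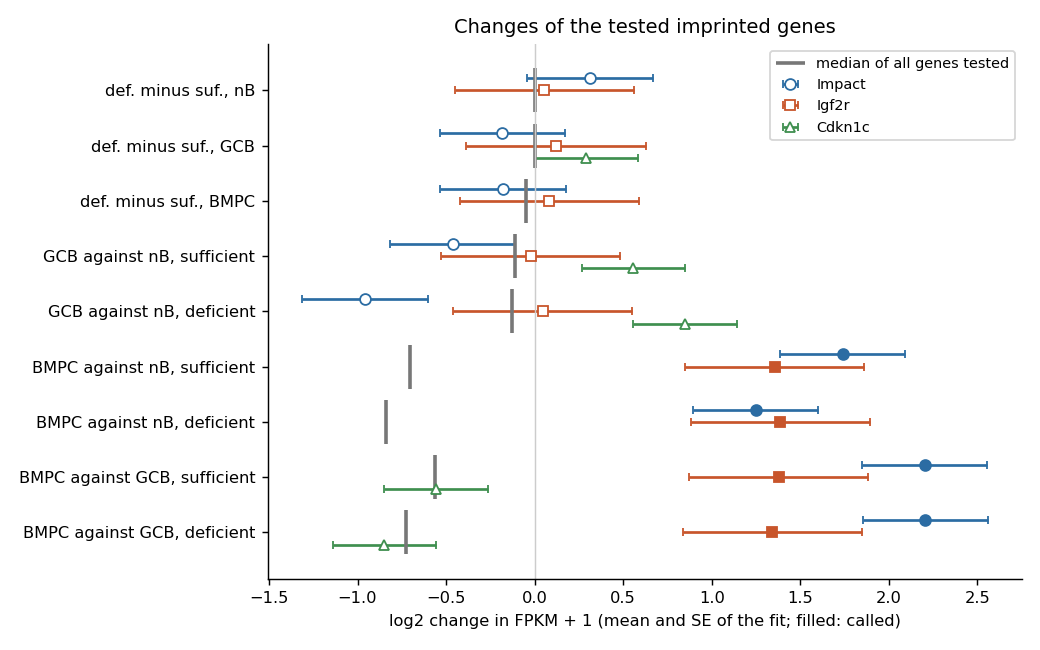
Change on the log2(FPKM + 1) scale with its SE (symbols and whiskers, filled where called) for Impact, Igf2r and Cdkn1c in 9 comparisons of groups, with the median change of all 11522 genes tested as a gray bar. In the 4 BMPC comparisons Impact and Igf2r lie between 1.25 and 2.21 while the medians lie between -0.84 and -0.56, and Cdkn1c is left out where both groups are at 0.

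Cdkn1c encodes p57, an inhibitor of cyclin-dependent kinases that stops the cell cycle. It lies on chromosome 7 at positions 150644255 to 150646955 of mm9, on the minus strand. In sufficient GCB its values were 0.520, 0 and 1.10 FPKM, from 9, 0 and 18 reads. In deficient GCB they were 0.988, 0.255 and 1.34 FPKM, from 16, 4 and 23 reads. The genotypes overlapped. No read was found in the 6 nB and 6 BMPC libraries. Over the 3 libraries of a group, a count of 0 allows up to 3 reads, which is 0.0662 and 0.0682 FPKM in sufficient and deficient nB and 0.160 and 0.294 FPKM in BMPC. Against these limits the summed level in GCB was at least 8.39-fold and 12.9-fold higher than in nB and at least 3.46-fold and 2.98-fold higher than in BMPC, in sufficient and deficient mice. Without replicate 3 of sufficient GCB, which held 18 of its 27 reads, the bounds in sufficient mice were 4.23-fold and 1.75-fold. Reads in at least 5 of the 6 GCB libraries and in no other library were seen for 0.462% of the genes with any read. The fitted changes of GCB against nB, 0.56 (limma adjusted p = 0.242) and 0.85 (limma adjusted p = 0.0634), were below the minimum change of 1 and were not called. Without replicate 2 of deficient GCB, the change was 1.11 and was called (limma adjusted p = 0.0251), as it was in the fit with a pseudocount of 0.1 (limma adjusted p = 0.0187). Cdkn1c passed the filter only through GCB, where it is high. Its spread in the fit to all libraries was set in part by the nB and BMPC libraries at 0. These calls are therefore no support for a difference. The genotype change in GCB was 0.29 (SE 0.29, limma adjusted p = 1).

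Of all genes tested, 7.22% were called higher and 6.93% lower in GCB than in nB in sufficient mice, and 6.31% and 6.61% in deficient mice. None of the 3 imprinted genes tested was among them. Lower calls in BMPC covered 27.6% and 30.6% of genes against nB and 20.9% and 26.1% against GCB, in sufficient and deficient mice, and again none of the 3 was among them.

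Mest, a paternally expressed gene of the hydrolase family known from mesoderm and fat tissue, was read at a low level in nB and GCB. It lies on chromosome 6 at positions 30673547 to 30698457 of mm9, on the plus strand. In nB its reads numbered 38, 0 and 10 in sufficient and 16, 6 and 8 in deficient libraries. In GCB they numbered 0, 21 and 11 in sufficient and 1, 10 and 5 in deficient libraries. These counts give 0 to 2.06 FPKM, and the genotypes overlapped in both cell types. All 6 BMPC libraries had no read, where 3 reads would be 0.286 to 0.804 FPKM in a library. Over the groups, the summed level in nB was at least 6.60-fold higher than in BMPC in sufficient and at least 2.32-fold higher in deficient mice. For GCB the bounds were 4.11-fold and 1.11-fold, so in deficient mice the depth of BMPC shows little difference. These bounds rested on single libraries. Without replicate 1 of sufficient nB, which held 38 of 48 reads, the bound against BMPC was 1.93-fold. Without replicate 2 of sufficient GCB it was 2.03-fold, and without replicate 2 of deficient GCB the level was under the limit of detection in BMPC. Of the genes with a read in at least 5 nB and at least 5 GCB libraries, 2.99% had no read in any BMPC library. Mest failed the filter on low values and was not tested. Its last 904 bases overlap exons of Copg2 on the opposite strand, and reads there may belong to either gene, since the use of strand in counting is not stated.

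Grb10, an adaptor that dampens signaling of the insulin and Igf1 receptors, was read in a single library. Replicate 3 of sufficient BMPC had 210 reads, or 9.95 FPKM, and the other 17 libraries had none. In any of those 17, a count of 3 reads would be at most 0.381 FPKM. The gene lies on chromosome 11 at positions 11830511 to 11938686 of mm9, on the minus strand. Among the genes with any read, 0.456% were likewise read in 1 BMPC library alone and at 5 FPKM or more, and 16 of these 68 genes belonged to the same library as Grb10.

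The 5 remaining genes gave 5 reads in all. Peg3, a zinc finger protein of fetal growth and maternal behavior, had 2 reads in replicate 1 of sufficient GCB and 1 read in replicate 2 of sufficient BMPC. Snrpn, a core protein of the spliceosome best known from neurons, had 1 read in replicate 1 of sufficient GCB, and Meg3, a long noncoding RNA, had 1 read in replicate 3. Plagl1, a zinc finger transcription factor, and H19, a long noncoding RNA beside Igf2, had none. Over the 6 libraries of a cell type, 3 reads would be at most 0.0249 FPKM of any of these 5 genes in nB, 0.0228 in GCB and 0.0771 in BMPC. No direction between groups can be read from such counts.

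Snurf, which is encoded on the same transcript as Snrpn, was counted as a gene of its own and was chosen for mention after its values were seen. It had 13, 12 and 38 reads in sufficient GCB and 3, 3 and 8 in deficient GCB, or 0.741 to 2.28 and 0.183 to 0.460 FPKM, and none in nB and BMPC. The genotypes did not overlap in GCB, as was the case for 10.6% of all genes tested. With 3 reads allowed over a group at 0, the summed GCB level was at least 19.6-fold (sufficient) and 4.19-fold (deficient) above nB. Against BMPC the bound was 8.08-fold in sufficient mice. In deficient mice it was 0.971-fold, so the level was under the limit of detection in BMPC. Snurf failed the filter on low values and was not tested. Reads on exons that both genes share may have been counted for neither, so the single read of Snrpn is no measure of that transcript.

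In the comparison of genotypes, none of the 3 imprinted genes tested was called in any cell type. Over all genes tested, 0.0521% were called in nB, 0% in GCB (124 genes had an unadjusted p under 0.05) and 3.98% in BMPC. In BMPC 33.6% of the calls were higher in deficient libraries, and 44.9% after median of ratios scaling, and no gene was called in the fit to the 6 BMPC libraries. Genotypes that did not overlap were seen for Impact in nB and for none of the 3 in GCB or BMPC, where 10.6% and 10.3% of all genes did not overlap. The interaction terms, which ask whether the genotype difference changes between cell types, gave no call for the 3 genes. The smallest unadjusted p among them was 0.337 for GCB against nB, 0.341 for BMPC against nB and 0.489 for BMPC against GCB (limma, adjusted p of 0.754 or more). Over all genes the interactions called 0%, 0.555% and 0.425%.

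The genes with levels most like those of the 3 tested ones were looked up over the 18 libraries, which fall into 3 cell types, so that any gene set apart in the same cell type scores high. For Impact they were Ly6c1 (Pearson r = 0.960), Tmbim4 (r = 0.956) and Cd93 (r = 0.954) on the log2(FPKM + 1) scale. For Igf2r they were H2afy (r = 0.905), Pklr (r = 0.879) and Col5a1 (r = 0.877). For Cdkn1c they were Fcgr4 (r = 0.946), Atcay (r = 0.933) and 2810429I04Rik (r = 0.911).

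A wider list held 68 other imprinted genes of the table, listed as 28 paternally and 40 maternally expressed. Many genes are imprinted in only some tissues, and imprinting of these in B lineage cells was not examined. Of these, 22 had no read in any library and 30 passed the filter, 9 of them paternal and 21 maternal. In GCB against nB, 2 of the 30 were called higher and 4 lower in sufficient mice, beside 7.22% and 6.93% of all genes, and 2 higher and 3 lower in deficient mice, beside 6.31% and 6.61%. In BMPC against nB, 3 were called higher and 7 lower in sufficient mice, beside 9.74% and 27.6% of all genes, and 3 higher and 10 lower in deficient mice, beside 6.85% and 30.6%. In BMPC against GCB, 3 were called higher and 5 lower in sufficient mice, beside 6.67% and 20.9% of all genes, and 2 higher and 7 lower in deficient mice, beside 6.14% and 26.1%. These counts are near those shares. They include calls of Airn, Slc22a3 and Nespas, which passed the filter only through the group where they are high. The 2 called higher in GCB than in nB, Gatm and Cobl, had no read in nB. The counts are therefore no support for a difference. Their median change in BMPC against nB was -0.52 and -1.50 in sufficient and deficient mice, beside -0.70 and -0.84 over all genes. In all, 18 of the 30 were called in at least 1 of 9 comparisons of groups, beside 62.4% of all genes, and the 12 with the lowest adjusted p are shown by library in the map of other imprinted genes.

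**Figure D4:**
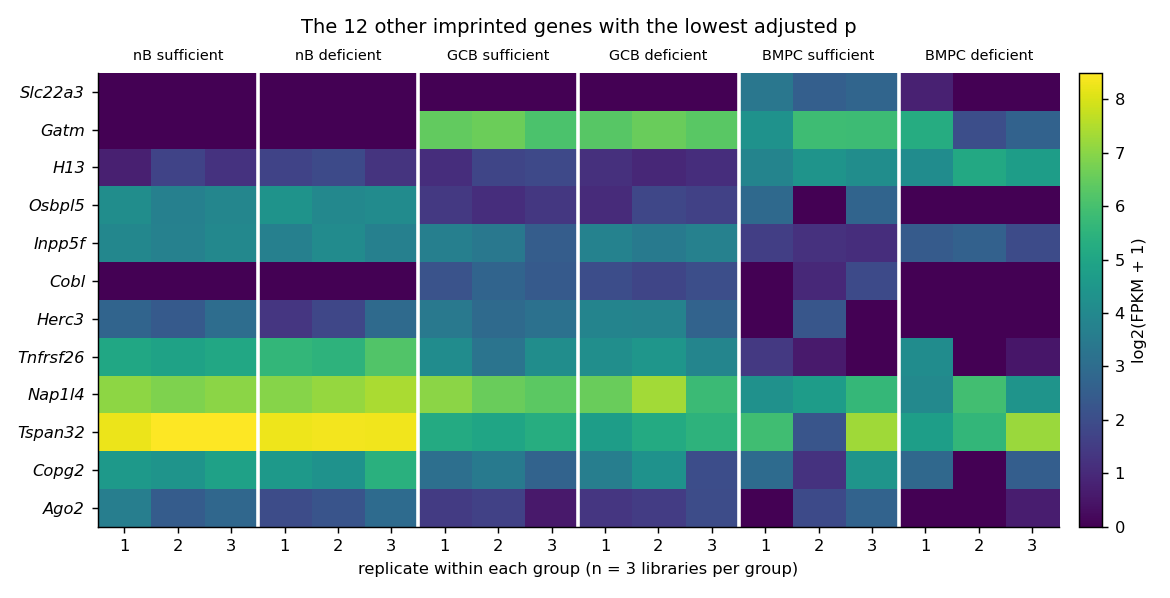
Level as log2(FPKM + 1) of 12 other imprinted genes (lines) in each of the 18 libraries (columns, 3 per group). H13 is brightest in BMPC, Gatm and Cobl are dark in all nB libraries, and Tspan32 is brightest in nB.

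H13, a signal peptide peptidase of the endoplasmic reticulum, rose in BMPC in both genotypes. It stood between 0.677 and 2.71 FPKM in the 12 nB and GCB libraries. In BMPC it stood at 13.2, 20.1 and 17.1 FPKM in sufficient and 16.3, 33.9 and 25.7 in deficient libraries. The rise against nB was 2.90 in sufficient and 3.04 in deficient mice (SE 0.44, limma adjusted p = 7.61e-05 and 5.46e-05), and H13 was called in all 8 alternative fits of each BMPC comparison. Mcts2, a paternally expressed gene that lies within an intron of H13 on the same strand, ranged from 0 to 7.52 FPKM in nB and GCB and was at 0 in all 6 BMPC libraries. There 3 reads would be 0.992 to 2.78 FPKM in a library and 0.254 over all 6. The median was 1.59 FPKM in nB and 0.395 in GCB, so a single BMPC library could miss such levels. A relation of Mcts2 to H13 was not tested.

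Gatm, which makes the creatine precursor guanidinoacetate, had no read in any nB library. It stood at 66.3 to 95.8 FPKM in GCB, at least 1510-fold and 1470-fold above the limit in nB of the same genotype. In BMPC it stood at 19.1, 57.2 and 55.8 FPKM in sufficient and 36.9, 3.13 and 5.43 in deficient libraries, where replicate 1 held most of the reads. Cobl, an actin nucleator, also had no read in nB and stood at 2.41 to 5.600 FPKM in GCB. Tspan32, a tetraspanin of blood cells, went the other way, from 304 to 359 FPKM in nB to 25.4 to 43.6 in GCB, a change of -3.25 in sufficient and -3.18 in deficient mice (SE 0.85, limma adjusted p = 0.0141 and 0.0175). Leaving out any deficient nB library or replicate 1 of deficient GCB ended the call in deficient mice (limma adjusted p up to 0.0717). In BMPC Tspan32 varied from 3.76 to 153 FPKM.

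Osbpl5, a lipid transfer protein, fell in GCB in both genotypes, from 11.9 to 19.7 FPKM in nB to 1.06 to 2.48 (limma adjusted p = 0.00560 and 0.00566), a call lost with a pseudocount of 0.1 (limma adjusted p = 0.0930 and 0.103). In BMPC it stood at 6.46, 0 and 5.60 FPKM in sufficient libraries and had no read in the 3 deficient libraries. Inpp5f, a phosphoinositide phosphatase, fell in BMPC, from 12.0 to 16.1 FPKM in nB to 1.17 to 5.18, with the call in deficient mice lost under quality weights (limma adjusted p = 0.0843). Tnfrsf26, a decoy receptor of the tumor necrosis factor family, fell from 28.5 to 72.1 FPKM in nB to 0 to 16.7 in BMPC. Nap1l4, a histone chaperone, fell from 114 to 171 FPKM in nB to 15.0 to 59.3 in BMPC, with the call in deficient mice lost under voom (limma adjusted p = 0.0664). Herc3, a ubiquitin ligase, stood at 1.54 to 7.16 FPKM in nB and had no read in 5 of the 6 BMPC libraries. The fit to the 6 libraries compared did not call its fall against nB in sufficient mice (limma adjusted p = 0.116), and quality weights did not in deficient mice (limma adjusted p = 0.0817). It was also not called in sufficient mice without replicate 3 of nB or replicate 1 or 3 of BMPC, nor in deficient mice without replicate 3 of nB (limma adjusted p up to 0.0616 and 0.0754). Copg2, a coat protein of vesicles, was called lower in BMPC than in nB in deficient mice but not in sufficient mice (limma adjusted p = 0.00889 and 0.101). The same held for Ago2, the slicer of RNA interference (limma adjusted p = 0.00938 and 0.0625). The interaction was called for neither. Copg2 lost its call in the fit to the 6 libraries compared (limma adjusted p = 0.0591), and Ago2 lost it with quality weights (limma adjusted p = 0.0542).

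Igf2r lies beside 2 other genes of the list. Airn, the paternally expressed noncoding RNA that represses Igf2r in the embryo, runs from chromosome 17 position 12934177 to 13052988 of mm9 on the plus strand and overlaps Igf2r over 28354 bases, with no annotated exon in common. Airn was chosen for mention after its values were seen. It stood at 8.96, 0 and 6.05 FPKM in deficient BMPC, from 32, 0 and 30 reads, at 0, 0 and 0.252 in sufficient BMPC and at 0 in 11 of the 12 other libraries. In the same 3 deficient libraries Igf2r stood at 5.01, 15.5 and 8.55 FPKM, and in the sufficient BMPC libraries at 4.69, 11.7 and 9.998. Among the 3 deficient libraries Igf2r was lowest where Airn was highest. The lowest Igf2r value of all 6 BMPC libraries came from a sufficient library without a read of Airn. A relation of Airn to Igf2r was not tested. Slc22a3, an organic cation transporter that is imprinted in the placenta, stood at 9.24, 4.88 and 5.75 FPKM in sufficient BMPC and at 0.700, 0 and 0 in deficient BMPC, and had no read in nB and GCB. The genotypes did not overlap. Slc22a3 passed the filter on low values only through sufficient BMPC, where it is high, and its spread in the fit to all libraries was set in part by 12 libraries at 0. Its call there (change -2.63, SE 0.29, limma adjusted p = 5.80e-05) is therefore no support for a difference, and the fit to the 6 BMPC libraries made no call (limma adjusted p = 0.709). No other gene of the 30 was called between genotypes.

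**Figure D5:**
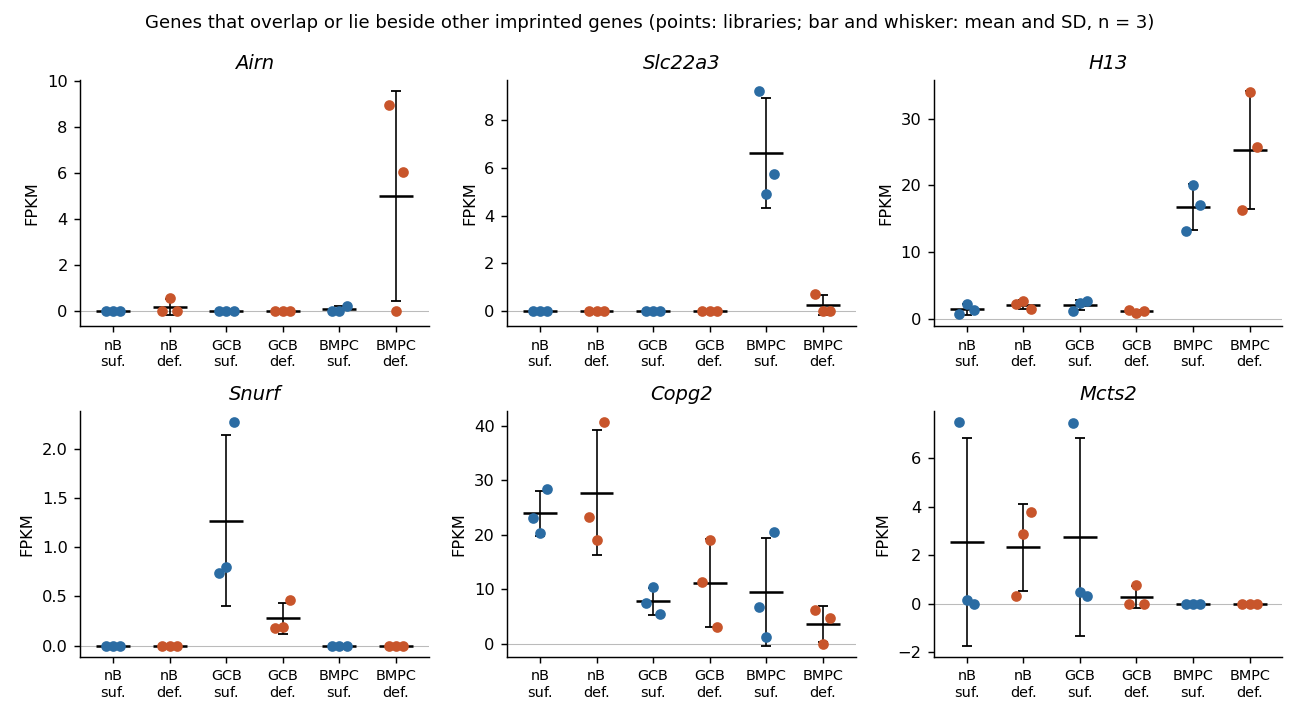
FPKM of 6 genes that overlap or lie beside other imprinted genes, in each library (points, blue sufficient and orange deficient), with the group mean and SD (bar and whisker, n = 3). Slc22a3 is seen almost only in sufficient BMPC and Airn is highest in 2 deficient BMPC libraries, while Snurf is seen only in GCB and Mcts2 is at 0 in BMPC. Depth is lowest in BMPC, so low levels there may be missed.

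Genotypes did not overlap for 4 of the 30 other imprinted genes in nB, 3 in GCB and 4 in BMPC, beside 8.84%, 10.6% and 10.3% of all genes. Those not named above were chosen for mention after their values were seen. In nB, Zrsr1 and Tnfrsf26 were higher and Kcnq1ot1 and Trappc9 lower in deficient libraries. In GCB, Kcnq1ot1 and Cd81 were higher and Cobl lower. In BMPC, Inpp5f and Cd81 were higher and Tnfrsf22 and Slc22a3 lower. Cd81, a tetraspanin of the B cell surface, stood at 242 to 394 FPKM in sufficient and 500 to 784 in deficient BMPC. In the fit to all libraries this change of 0.97 (SE 0.18, limma adjusted p = 0.00626) missed the call by its size. The fit to the BMPC libraries alone called no gene between genotypes, and the p-value of Cd81 in that fit is not given here. A genotype difference in Cd81 is therefore not shown. Kcnq1ot1, the paternally expressed noncoding RNA of the Cdkn1c cluster, stood at 2.63 to 3.69 FPKM in sufficient and 2.03 to 2.53 in deficient nB, and at 0.731 to 1.05 and 1.16 to 1.27 in GCB. The interaction between these cell types was not called (0.54, SE 0.49, limma adjusted p = 1).

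Of 14 genes that set, keep or remove imprint methylation, 10 passed the filter and none was called between genotypes. In GCB against nB, 4 were called higher and 1 lower in each genotype, beside 7.22% and 6.31% of all genes higher and 6.93% and 6.61% lower in sufficient and deficient mice. In BMPC against GCB none was called higher and 4 lower in sufficient mice, beside 6.67% and 20.9% of all genes, and 1 higher and 7 lower in deficient mice, beside 6.14% and 26.1%. Dnmt1 and Zfp57 were chosen for mention after their values were seen. Dnmt1, which copies methylation at cell division, stood at 9.59 to 18.4 FPKM in nB and 1.49 to 18.5 in BMPC, against 52.2 to 85.4 in GCB, and was called higher in GCB than in nB (limma adjusted p = 0.00757 and 0.00596). Zfp57, the factor that recognizes the hexamer above, was read in 1 library, replicate 3 of sufficient BMPC, at 0.427 FPKM. Dnmt3l and Dppa3 had no read in any library.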

How the data were processed

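RNA-seq was deposited as 1 table of FPKM values for 18 libraries and 21761 genes, 92 without a symbol. The authors mapped read pairs to mm9 with TopHat, kept reads with a single hit and counted overlaps with exons of UCSC KnownGenes by summarizeOverlaps. The submitters' processing notes name Picard, R 3.2.2 and edgeR 3.12.1. The FPKM values were computed by the authors from these counts, the summed exon length and the reads on all listed genes. The authors' columns of fold changes, p-values and FDR were not used. The table held 0 columns of other samples.

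Scaled by exon length, the FPKM of a library were whole multiples of 1 read for 100% of values (tolerance 0.01 reads), so reads and depth were recovered. PCR-amplified reads are not independent molecules, so limits from 3 reads cover counting error only. By the study's methods each nB and BMPC library came from its own mouse and each GCB library from its own pair of mice. The lower bounds of folds without each library were added after the values were seen. No 2 libraries of a group agreed within sampling noise (chi-square per degree of freedom of 22.3 or more).

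limma 3.58.1 (R 4.3.3) was fitted to log2(FPKM + 1), a scale that understates changes of low genes, with 1 mean per group, 1 spread per gene, an intensity trend and a two-sided test, after removal of genes that did not exceed FPKM of 1 in 2 or more libraries. The BMPC libraries varied most, so BMPC results are also given from fits to the groups compared. The fit was tested on simulated data. Alternatives were another pseudocount, other filters, median of ratios scaling, sex, quality weights, voom on recovered reads, fits to the groups compared, a replicate block in GCB and leaving out each library. Of the other imprinted genes called, the 12 with the lowest adjusted p were named. Gene positions are from GENCODE vM1 on NCBIM37, the same assembly as mm9. The genes and lists were chosen with earlier results of these data known. Items withheld for evaluation are not reported here.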

Additional observations from a re-analysis of the deposited data

Results flagged for a closer look

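Slc22a3 passed the threshold of the interaction test, which compares the genotype difference in BMPC with that in another cell type. The log2 difference between genotypes in BMPC minus that in nB was -2.63 (SE 0.41, limma adjusted p = 0.00369), and minus that in GCB it was also -2.63 (SE 0.41, limma adjusted p = 0.00482). The gene had no read in nB or GCB, so both terms restate the difference in BMPC, and it entered the test through sufficient BMPC alone. The fit to the 6 BMPC libraries did not call that difference (limma adjusted p = 0.709), so a difference between cell types is not shown. In fits to the 4 groups of each interaction the adjusted p-values were 0.0287 and 0.0273, with quality weights 0.154 and 0.125, and with voom on recovered reads 0.0408 and 0.0510. The neutrophil and erythroid genes also varied between the BMPC libraries, and their part in this difference was not tested.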

How the results depend on the processing

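Of the comparisons, those of genotypes and the interactions gave 0 calls among Impact, Igf2r and Cdkn1c under every alternative run. In deficient GCB against nB the count went from 0 to 1 (Cdkn1c) with a pseudocount of 0.1 and with voom on recovered reads. As Cdkn1c passed the filter only through GCB, its calls are no support for a difference. In BMPC against nB the count of 2 went to 1 in sufficient and 1 in deficient mice with a pseudocount of 0.1 and in fits to the groups compared, to 1 and 0 with quality weights, and to 1 in deficient mice with voom. In BMPC against GCB it went to 1 in both genotypes with no filter, with quality weights and in fits to the groups compared, to 1 in sufficient mice with a pseudocount of 0.1 and to 1 in deficient mice with voom. In each of these the call lost was that of Igf2r, joined in deficient BMPC against nB with quality weights by that of Impact. The cause was not tested. Leaving out each library in turn gave 1 to 2 calls in each of the 4 BMPC comparisons, 0 to 1 in deficient GCB against nB and 0 to 0 elsewhere.

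Small changes turned sign. The genotype change of Igf2r in BMPC was -0.071 with voom. Leaving out each library, the genotype change of Igf2r had a range of -0.22 to 0.20 for nB, of -0.23 to 0.34 for GCB and of -0.29 to 0.44 for BMPC, its GCB against nB change from -0.30 to 0.33 in sufficient and -0.12 to 0.23 in deficient mice, and the genotype change of Impact from -0.34 to 0.077 in GCB and -0.39 to 0.013 in BMPC. In GCB, with a replicate block, the count of calls stayed at 0, and same-numbered libraries did not deviate together (r = -8.06e-05, -0.0171 and 0.0257), so they were not treated as pairs, although they also share the labelled sex. In deficient BMPC against GCB with a pseudocount of 0.1 the count stayed at 2, with Cdkn1c called in place of Igf2r. Genes of low level are limited by depth in BMPC, where 3 reads weigh most.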
